A study of Mus musculus with 6 samples.

Results

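Glutathione S-transferases are enzymes that join the tripeptide glutathione to reactive, electrophilic compounds, which makes these compounds more soluble and ready for export from the cell. The soluble enzymes fall into classes named after Greek letters (alpha, mu, pi, theta, omega and others), each encoded by genes that often lie side by side, and the liver is rich in them because it handles drugs, toxins and products of lipid peroxidation. The genes followed here, chosen by symbol, were the alpha genes Gsta2, Gsta3 and Gsta4, the mu genes Gstm1, Gstm2 and Gstm4, the pi gene Gstp1, the theta gene Gstt1, the omega gene Gsto1 and the kappa gene Gstk1. All 10 were found, once each, among the 22488 genes of the count tables, and all 10 passed the filter on low counts.

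The RNA came from whole livers of wild-type male C57BL/6 mice aged 6 to 8 weeks, fasted for 16 h. Control mice (3 libraries) received 200 µl of the salt buffer HBSS into the abdominal cavity, although another label of these samples gives no treatment, and LPS mice (3 libraries) received 6 mg/kg of lipopolysaccharide, the endotoxin of Gram-negative bacteria, by the same route. How long after injection the livers were taken is not given in the sources used here. Headers of the tables number the control libraries in one run and the LPS libraries in another, without saying what the numbers stand for, so any difference in handling cannot be told apart from the treatment. Libraries held 11488525 to 20282004 counted reads, of which the 10 genes took 13923 to 37487. Levels are given as CPM, a gene's counts relative to the scaled total of its library on the usual CPM scale, in the order replicate 1, 2 and 3. Differences are log2 fold changes, LPS minus control, each with its standard error (SE) or a 95% interval from it, and p values are from edgeR, adjusted over 12078 tested genes. A gene is said to have risen or fallen only where the adjusted p was under 0.05.

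Promoters are shown for genes on which the results turn: Gstm4, with the largest fold change of the 10, its neighbour Gstm1, which did not pass the threshold, and Gsta3 and Gstp1, abundant members of other classes that fell and whose promoters hold at least one of the motifs searched. Each run is the 250 bases before the most upstream start in RefSeq (GRCm38.p6), read 5′ to 3′ on the gene's own strand. Capitals mark motif matches.
Gstm4: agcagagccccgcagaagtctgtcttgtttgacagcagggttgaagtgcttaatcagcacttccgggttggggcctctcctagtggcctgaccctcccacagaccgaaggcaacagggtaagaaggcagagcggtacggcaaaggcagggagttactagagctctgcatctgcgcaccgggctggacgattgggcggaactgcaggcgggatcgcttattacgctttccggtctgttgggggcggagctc
Gstm1: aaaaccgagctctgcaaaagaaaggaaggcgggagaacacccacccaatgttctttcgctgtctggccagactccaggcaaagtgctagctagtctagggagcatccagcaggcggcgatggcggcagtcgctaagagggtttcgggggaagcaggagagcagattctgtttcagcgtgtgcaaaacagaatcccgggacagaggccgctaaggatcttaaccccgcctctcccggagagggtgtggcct
Gsta3: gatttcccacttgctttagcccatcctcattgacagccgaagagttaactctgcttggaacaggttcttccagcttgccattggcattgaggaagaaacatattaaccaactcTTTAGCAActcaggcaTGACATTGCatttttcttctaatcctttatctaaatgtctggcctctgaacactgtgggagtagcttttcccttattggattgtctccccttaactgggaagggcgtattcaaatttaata
Gstp1: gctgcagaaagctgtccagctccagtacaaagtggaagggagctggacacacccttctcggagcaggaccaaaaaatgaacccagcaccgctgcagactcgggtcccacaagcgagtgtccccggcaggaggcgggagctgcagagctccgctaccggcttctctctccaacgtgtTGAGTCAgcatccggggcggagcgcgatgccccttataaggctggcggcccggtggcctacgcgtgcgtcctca
These lie at chr3:108044860-108045109 (minus strand), chr3:108017974-108018223 (minus strand), chr1:21240335-21240584 (plus strand) and chr19:4037913-4038162 (minus strand). The motifs were searched on both strands: the core of the antioxidant response element bound by NRF2 (TGACNNNGC), the AP-1 site (TGANTCA), a C/EBP half-palindrome (TTGCNNAA) and an NF-kB decamer. The first and second can overlap. The Gsta3 promoter held 1 antioxidant response element core, starting 121 bases before the start, and 1 C/EBP match, starting 137 bases before it. The Gstp1 promoter held 1 AP-1 match, 74 bases before the start. No match to these letters stood in the windows of Gstm4 and Gstm1. A promoter was found for 9 of the 10 genes (all but Gsta4), and of those not printed Gstm2 and Gstt1 each held 1 C/EBP match. Of 27025 mouse promoters of the same length, 10.1% held the antioxidant response element core, 6.85% the AP-1 site, 9.55% the C/EBP letters and 0.344% the NF-kB site. These matches describe the letters only.

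Most of the 10 transferases were lower in LPS livers. The test called 7 of them lower (Gsta2, Gsta3, Gstm4, Gstp1, Gstt1, Gstk1 and Gsto1) and 0 higher, where 31.0% of all tested genes were called lower and 31.3% higher. With unadjusted p under 0.05 the count of higher members was also 0, and DESeq2 and limma called 0 higher as well. Gstm1, Gstm2 and Gsta4 did not pass the threshold. In 8 of the 10 genes every LPS library lay below every control library, which holds for 33.4% of all tested genes. The median log2 fold change of the 10 was -0.78, beside 0.01 for all tested genes. LPS replicate 3 was the highest LPS library for 9 of the 10 genes, and for 6 of them when levels were scaled by library totals alone. In whole liver, fewer cells of a type and less RNA per cell cannot be told apart.

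**Figure D1:**
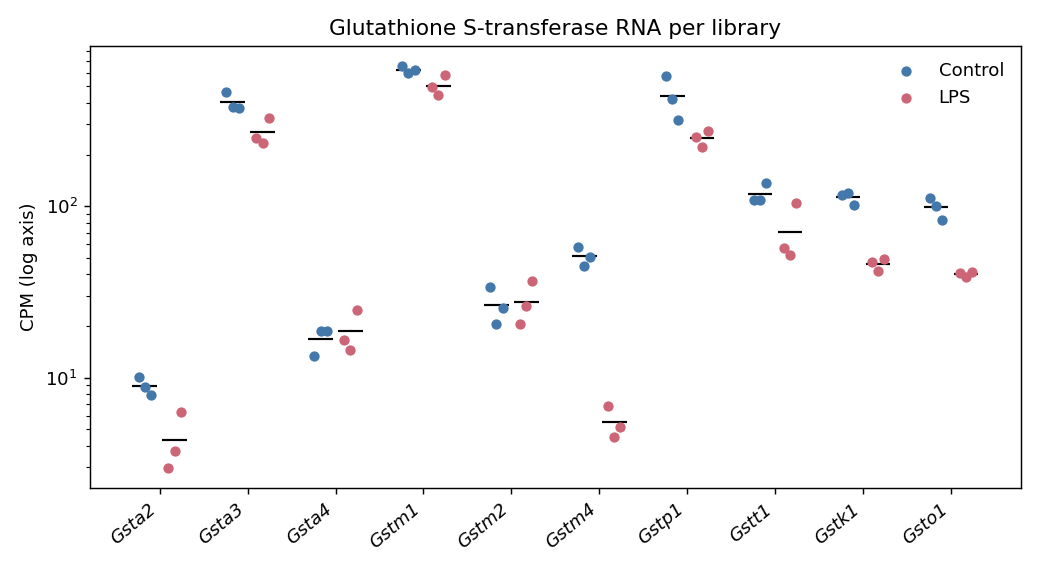
CPM of the 10 glutathione S-transferases in each control (blue) and LPS (red) library, on a log axis, with a black line at each group mean (n = 3). The Gstm4 points separate most widely, from 44.7 to 58.1 in control and from 4.50 to 6.82 in LPS livers, while the points of Gsta4 and Gstm2 overlap.

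Other markers moved in the same libraries. Summed CPM of 12 hepatocyte markers, Alb included, ran from 116900 to 129800 in control and from 73740 to 100900 in LPS livers. Of these markers 10 fell and 1 rose, and the highest LPS sum was that of replicate 3. None of the 12 was at 0, so hepatocyte RNA was present in every group. Neutrophil markers (8 genes, 6 tested, all 6 higher) summed to 4.05 to 7.64 CPM in control and 153.7 to 194.6 in LPS livers, monocyte markers (7 genes, 6 tested, 5 higher) went from 5.46 to 9.54 up to 61.7 to 76.8, and Kupffer cell markers (8 genes, 7 lower and 1 higher) went from 276.9 to 307.9 down to 62.9 to 101.8. Markers of hepatocytes near the central vein (10 genes, 6 lower and 2 higher) summed to 9566 to 10790 CPM in control and 4668 to 5127 in LPS livers, and those near the portal vein (8 genes, 7 lower and 1 higher) to 6417 to 7257 and 2187 to 3335. Cholangiocyte markers (6 genes, 5 tested, 3 higher and 1 lower) summed to 19.9 to 32.4 CPM in control and 117.5 to 139.7 in LPS livers. Adipocyte markers (6 genes, 3 tested, 1 higher and 1 lower, Lep at 0 in every library) summed to 17 to 32.4 and 119.1 to 137.0. The 3 tested had log2 fold changes from -1.01 to 2.81 with a median of -0.89, so the higher sum rests on 1 gene. The sums of B cell markers (5 genes, 2 lower and 0 higher) were lower in all LPS libraries (6.22 to 8.16 against 9.36 to 12.9). Those of sinusoidal endothelium, stellate, erythroid and T or NK cell markers overlapped between groups. Even so, 5 of 8 endothelial markers fell and 1 rose (median -0.61), and 5 of 8 stellate markers fell and 1 rose (median -1.54). Among 5 tested erythroid markers 2 rose and 1 fell, and 0 of 2 tested T or NK cell markers were called. By comparison, 31.0% of all tested genes fell and 31.3% rose. The part of these shifts in the transferase results was not tested.

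Among the 10 genes, Gstm1 and Gstp1 were the most abundant in control livers. Divided by exon length, the level of Gstm1, the major mu enzyme, was 425.7 ± 19.7 CPM per kilobase (SD, n = 3) and that of Gstp1, the pi enzyme, 284.1 ± 84.2. Gsta3 (93.3 ± 12.1), Gstt1 (77.4 ± 10.7) and Gstk1 (76.9 ± 6.41) followed, and the ranges of neighbours in this trio overlapped. Gsto1 (48.7 ± 6.99), Gstm4 (30.0 ± 3.92) and Gstm2 (15.8 ± 3.99) came next without overlap between neighbours, then Gsta4 (13.3 ± 2.37), which overlapped Gstm2, and Gsta2 (7.58 ± 0.963). When the principal transcript's length replaced the exon length, Gstp1 ranked above Gstm1 and Gstk1 above Gstt1 in control livers. In LPS livers the order was the same for the first 6 genes, but Gstm4 went from rank 7 to rank 10 (3.21 ± 0.703), with a range overlapping that of Gsta2 (3.68 ± 1.47).

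Summed over the 10 genes, the level was 1206, 1032 and 980.3 CPM per kilobase in control and 677.1, 612.3 and 817.3 in LPS livers. The groups did not overlap, and the LPS mean was 65.5% of the control mean. The shares that follow depend on the length divided by. It was 4.34 kb of exon for Gsta3 and 1.55 kb for Gstp1, where the principal transcripts have 1.46 and 0.821 kb. With principal transcripts Gstp1 ranked above Gstm1 in control livers. Divided by exon length, Gstm1 made up 39.9 ± 3.04% of the sum in control and 49.0 ± 0.641% in LPS livers (SD, n = 3). Gstp1 held 26.1 ± 4.996% and 23.0 ± 1.28%, Gstk1 7.20 ± 0.657% and 4.49 ± 0.370%, and Gstm4 2.80 ± 0.251% and 0.463 ± 0.115%. The ranges of the share did not overlap between groups for Gstm1 and Gstm4, nor for Gstk1, Gsto1, Gsta2, Gstm2 and Gsta4. Those of Gstp1, Gsta3 and Gstt1 overlapped.

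**Figure D2:**
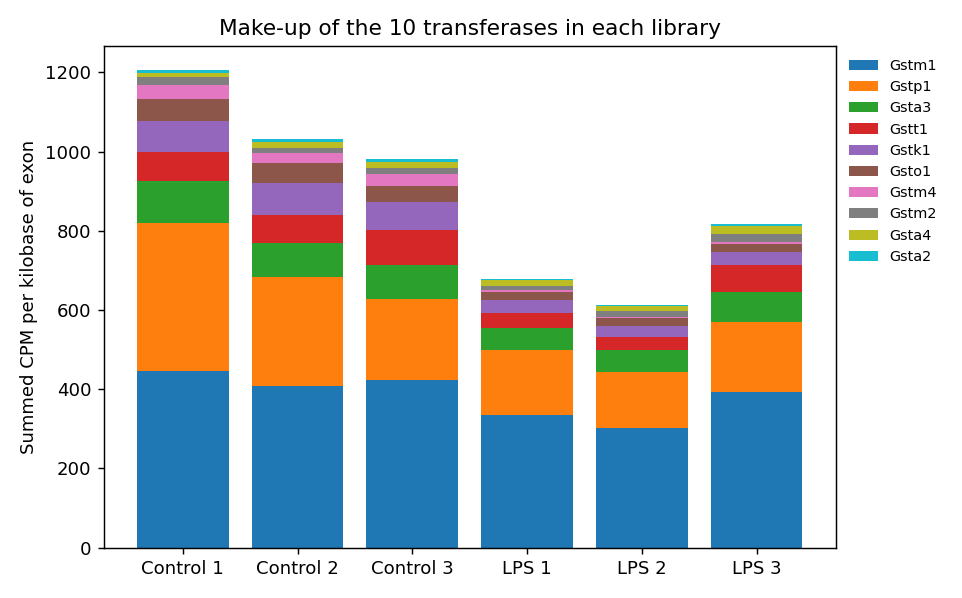
Stacked bars give the CPM per kilobase of exon of the 10 genes in each library, ordered from the most to the least abundant in control livers. Bars reach 980.3 to 1206 in control and 612.3 to 817.3 in LPS livers, and with this length Gstm1 is the tallest segment in all 6.

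The alpha class conjugates products of lipid peroxidation and, in the mouse, the epoxide of the mould toxin aflatoxin, the latter mainly through Gsta3. Gsta3 (chromosome 1, 21240589 to 21265661, plus strand) stood at 466.0, 377.1 and 372.6 CPM in control and 249.2, 234.6 and 325.3 in LPS livers. No LPS library reached the lowest control, and the log2 fold change was -0.59 (SE 0.15, adjusted p = 0.00394). A minus-strand gene, Gm28836, overlaps Gsta3, and whether reads were counted by strand is not given, so reads of the pair cannot be told apart.

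Gsta2 (chromosome 9, 78331018 to 78355788, minus strand) was the least abundant of the 10 in control livers, with 10.1, 8.76 and 7.89 CPM in control and 2.98, 3.73 and 6.27 in LPS livers. Every LPS value was below every control value, with LPS replicate 3 near the controls (-1.03, SE 0.28, adjusted p = 0.00567). The value is uncertain in its identity: of all stretches of 50 bases in Gsta2 transcripts, 49.8% also occur in another gene, most often the neighbouring Gsta1. Gsta1 itself had 0.395 ± 0.243 CPM in control and 0.501 ± 0.0747 in LPS livers and did not pass the filter. Where shared reads were assigned is not given in the sources used here.

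Gsta4, the alpha enzyme specialised on hydroxynonenal and related aldehydes of lipid peroxidation (chromosome 9, 78182774 to 78209349, plus strand), did not follow. Its values were 13.4, 18.6 and 18.6 CPM in control and 16.5, 14.6 and 24.9 in LPS livers. The groups overlapped, LPS replicate 3 was the highest of all 6, and the log2 fold change was 0.14 with a 95% interval from -0.27 to 0.55 (adjusted p = 0.575). Without LPS replicate 3 it was -0.11. The CPM ratio of Gsta4 to Gsta2, which lie on the same chromosome, was 1.32, 2.13 and 2.36 in control and 5.54, 3.91 and 3.97 in LPS livers. An exact permutation test of this ratio (2-sided, 3 against 3), which was not planned, gave p = 0.1, the smallest it can give.

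The mu genes detoxify epoxides and quinones and lie in 1 cluster on chromosome 3. Gstm4 (108040408 to 108044894, minus strand) had 58.1, 44.7 and 50.9 CPM in control and 6.82, 4.50 and 5.13 in LPS livers. The fall was 9.38-fold (log2 fold change -3.23, SE 0.18, adjusted p = 3.18e-09), with every LPS library far below the controls. Leaving out each library in turn kept it between -3.43 and -3.10. No stretch of 50 bases of Gstm4 transcripts was found in another gene.

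Gstm1 (108012255 to 108017973, minus strand) stood at 658.2, 600.8 and 622.2 CPM in control and 493.3, 443.8 and 580.7 in LPS livers. The groups did not overlap, but the log2 fold change of -0.31 (SE 0.13) missed the threshold with an adjusted p of 0.0577. It passed, with 8 members called lower, without LPS replicate 3 (-0.41, adjusted p = 0.0133), with library totals (-0.38), without a filter on low counts (-0.35), with DESeq2 (-0.31), with limma (-0.32) and with the replicate block (-0.32). Across all alternatives its adjusted p ran from 0.0120 to 0.236. Of its stretches of 50 bases, 18.9% occur in another gene, most often the pseudogene Gstm2-ps1.

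Gstm2 (107981702 to 107986453, minus strand) had 33.8, 20.6 and 25.3 CPM in control and 20.6, 26.0 and 36.4 in LPS livers. The groups overlapped, and the log2 fold change was 0.07 with a 95% interval from -0.35 to 0.48 (adjusted p = 0.799). Its sign changed with library totals and without control replicate 2 or LPS replicate 3. Set against its neighbours, Gstm4 amounted to 7.44 to 8.83% of the Gstm1 CPM in control and 0.884 to 1.38% in LPS livers, and to 171.7 to 216.7% of the Gstm2 CPM in control and 14.1 to 33.1% in LPS livers. Neither ratio overlapped between groups. Exact permutation tests gave p = 0.1 for each, the smallest possible with 3 against 3, and 0.1 when adjusted over the 3 ratios tested. These ratios were not among the planned results, and a test that can give no smaller p cannot decide whether they differ.

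Of the other 4 genes of the mu cluster, Gstm5 and Gstm6 were named after their values were seen. Along the chromosome the order is Gstm5, Gstm7, Gstm6, Gstm3, Gstm2, Gstm1 and Gstm4. Gstm3 rose from 9.67, 6.37 and 6.86 CPM to 19.1, 15.2 and 21.7 (1.30, SE 0.21, adjusted p = 1.06e-04), and Gstm6 rose from 38.98 ± 4.95 to 59.6 ± 5.69 CPM (0.61, SE 0.13). Gstm7 fell from 22.5 ± 3.82 to 9.39 ± 0.647 CPM (-1.26, SE 0.17), and Gstm5 stood at 7.60 ± 1.41 and 8.03 ± 1.84 CPM (0.08, SE 0.24, adjusted p = 0.787). Within the cluster 2 of 7 genes fell, 2 rose and 3 did not pass the threshold, shares near those of all tested genes (31.0% lower and 31.3% higher).

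**Figure D3:**
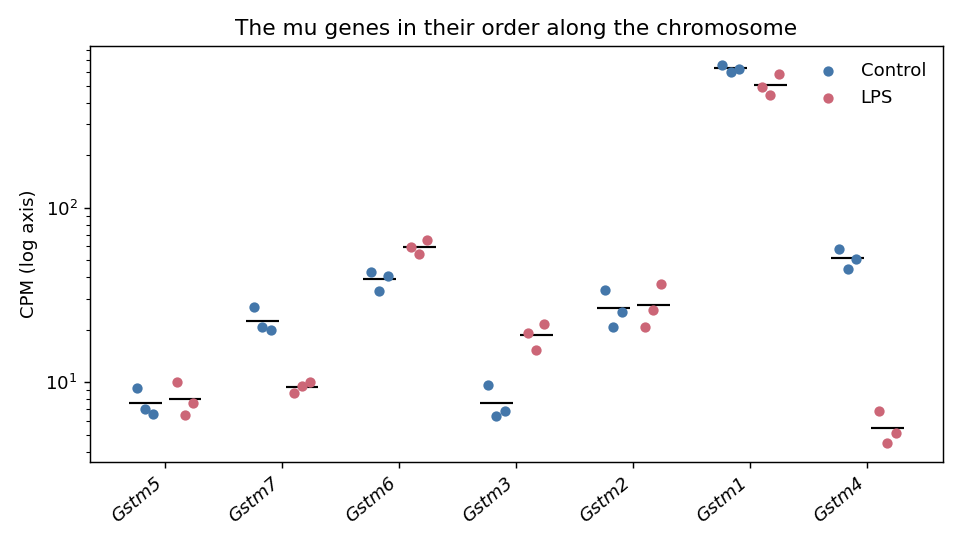
CPM (log axis) of the 7 mu genes in chromosomal order, per library, with group means as black lines (n = 3). Gstm4, Gstm7 and Gstm1 are lower and Gstm3 and Gstm6 higher in all LPS libraries than in all control libraries, and Gstm2 and Gstm5 overlap. Gstm1 did not pass the threshold.

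Gstp1, the pi enzyme, which also binds stress kinases (chromosome 19, 4035407 to 4037985, minus strand), had a wide spread among control livers, at 577.1, 424.7 and 317.8 CPM. LPS livers held 252.8, 221.2 and 273.4, all below the lowest control (-0.82, SE 0.18, adjusted p = 0.00155). Without control replicate 1, the highest library, the difference was -0.58 and remained past the threshold. The adjoining Gstp2 shares 33.7% of the stretches of 50 bases of Gstp1, so reads of the pair may be divided between them. Gstp2 fell too (9.01 ± 2.11 to 5.13 ± 0.674 CPM, -0.81, SE 0.25, adjusted p = 0.0111), while Gstp3, the next gene, rose (5.19 ± 0.627 to 9.14 ± 1.41 CPM, 0.82, SE 0.23, adjusted p = 0.00646). Both were named after their values were seen. The 5 genes most like Gstp1 across the 6 libraries, among 7437 others with a mean of at least 10 CPM, were Trappc1, Fdx1, Eif3h, Ndufa8 and Prelid1 (Pearson r of log2 CPM from 0.976 to 0.988). For Gsta4 they were Slc49a4, Cd302, Gpr146, Camsap1 and Xpr1 (0.941 to 0.979). These correlations mix the group difference with the spread between libraries and describe 6 points.

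The theta enzyme Gstt1, which acts on small halogenated molecules (chromosome 10, 75783813 to 75798584, minus strand), had 108.9, 108.5 and 137.2 CPM in control and 56.97, 51.8 and 104.4 in LPS livers. LPS replicate 3 lay just below the lowest control, and the other LPS libraries lay far below it. The log2 fold change was -0.73 (SE 0.22, adjusted p = 0.00949), and without LPS replicate 3 it was -1.11. Without LPS replicate 2 it was -0.55, just past the threshold (adjusted p = 0.0478). Gstt2, another theta gene, fell as well, from 112.0, 116.4 and 113.8 to 21.0, 28.4 and 27.7 CPM (-2.15, SE 0.14, adjusted p = 1.61e-08), with no library near the other group. Gstt3, which lies beside Gstt1 and was named after its values were seen, had 24.1, 13.5 and 18.1 CPM in control and 30.4, 17.6 and 14.97 in LPS livers. Its groups overlapped (0.18, 95% interval -0.32 to 0.68, adjusted p = 0.561).

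Gstk1, a transferase of mitochondria and peroxisomes that is related to bacterial disulfide-forming enzymes (chromosome 6, 42245935 to 42250447, plus strand), had 117.0, 119.8 and 102.2 CPM in control and 47.5, 41.6 and 48.9 in LPS livers. It fell 2.46-fold (-1.30, SE 0.13, adjusted p = 9.10e-07). Gsto1, an omega enzyme that reduces dehydroascorbate and mixed disulfides (chromosome 19, 47854970 to 47864790, plus strand), went from 111.7, 100.1 and 83.5 to 40.7, 38.6 and 41.1 CPM. Its fall was 2.45-fold (-1.29, SE 0.13, adjusted p = 1.62e-06). For both genes the spread within LPS livers was small beside the gap between groups. Gsto1 overlaps the minus-strand gene Cfap43.

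Of 15 further soluble transferases on the list, 11 were tested, of which 4 rose and 4 fell, with a median of 0.08. That is 36.4% each way, near the 31.3% and 31.0% of all tested genes. Gstz1, the maleylacetoacetate isomerase of tyrosine breakdown and the most abundant of them, fell from 511.6 ± 28.7 to 217.5 ± 17.6 CPM (-1.23, SE 0.13, adjusted p = 1.35e-06). Gstcd rose (0.94, SE 0.39, adjusted p = 0.0496), and no longer passed when control replicate 1 or 3 or LPS replicate 1 or 2 was left out (0.58 without control replicate 3). Gstt4 had no count in any of the 6 libraries, which allows up to 0.0337 CPM over all 6.

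The membrane-bound MAPEG proteins, a separate family with glutathione-dependent enzymes, were led by Mgst1, the transferase of the endoplasmic reticulum and mitochondrial outer membrane. Mgst1 stood at 4357, 5153 and 4411 CPM in control and 4187, 3887 and 3676 in LPS livers (-0.25, SE 0.14, adjusted p = 0.143), not called although the groups did not overlap. Of 6 listed proteins 4 were tested, with 2 higher and 1 lower. For so few genes these counts are near the shares of all tested genes (31.3% higher and 31.0% lower). Ptges, which makes prostaglandin E, had 2 counts in control and 78 in LPS livers, a ratio of 47.8 (95% counting interval 12.8 to 401.0), and Alox5ap, which hands arachidonic acid to leukotriene synthesis, rose (1.95, SE 0.44). Mgst3 fell (-1.02, SE 0.32, adjusted p = 0.0123). Ltc4s, the leukotriene C synthase, had 23 counts in control and none in LPS livers, which makes it at least 6.26-fold lower with 3 counts in the LPS group taken as the floor.

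**Figure D4:**
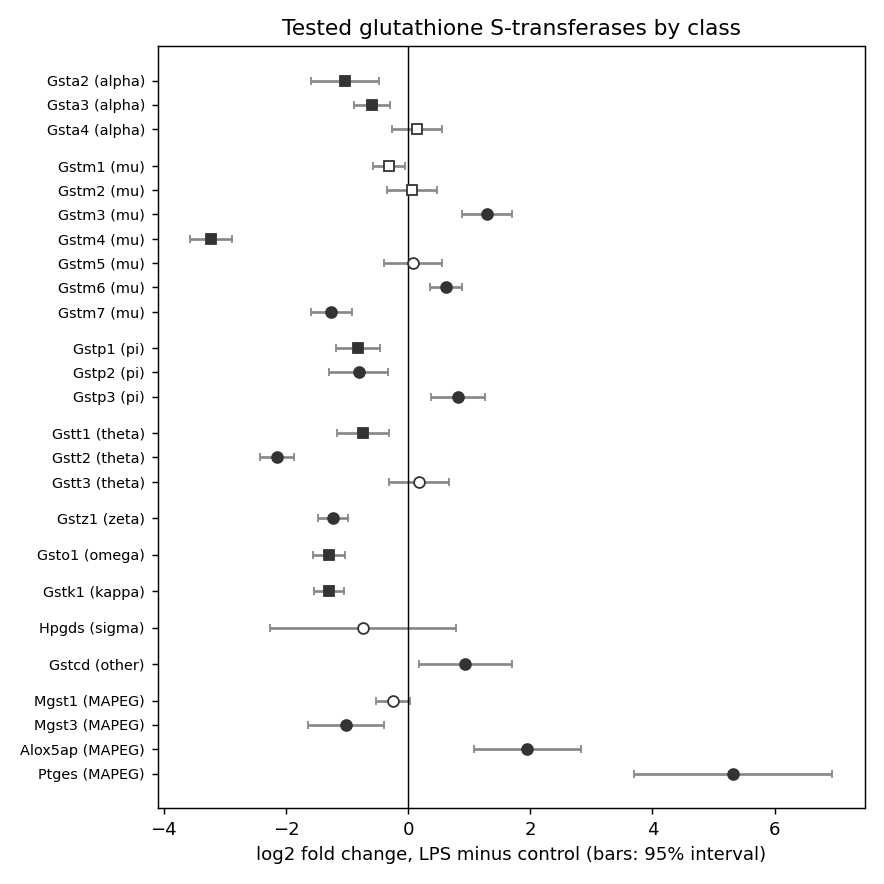
Log2 fold changes (LPS minus control, bars are 95% intervals) of the tested soluble and MAPEG glutathione enzymes by class. Squares are the 10 genes and circles other genes, and filled symbols passed the threshold. Values run from -3.23 for Gstm4 to a fitted 5.32 for Ptges, which rests on 2 control counts.

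Genes that make, recycle and spend glutathione were followed in lists drawn up by role. Over all pathway lists 68 of 74 genes were tested, of which 38 fell (55.9%) and 16 rose (23.5%), beside 31.0% and 31.3% of all tested genes. The median was -0.56. In synthesis, 2 of 5 fell and 2 rose (median -0.29), which for so few genes is near the share of all genes. Both subunits of the rate-limiting enzyme fell, the catalytic Gclc from 190.2, 277.7 and 220.2 to 56.2, 32.0 and 53.2 CPM (-2.29, SE 0.20, adjusted p = 3.88e-07) and the modifier Gclm (-1.48, SE 0.12). The cystine importer rose in both chains: Slc7a11 had no control count and 86 counts after LPS (at least 35.1-fold higher, with the control group set to 3 counts), and Slc3a2 rose from 31.7 ± 3.76 to 116.3 ± 9.36 CPM (1.87, SE 0.13). Among genes that reduce glutathione or supply its NADPH, 2 of 5 rose, glutathione reductase Gsr (0.61, SE 0.13) and Pgd of the pentose phosphate pathway (0.95, SE 0.14), and 2 fell, Me1 (-1.62) and Idh1 (-1.46). These counts too are near the shares of all tested genes for so few genes.

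Of 12 tested genes of other enzymes that use glutathione, 7 fell and 2 rose (median -0.81). These are 58.3% and 16.7%, beside 31.0% and 31.3% of all tested genes. The glyoxalases Hagh (-1.82, SE 0.16) and Glo1 (-1.37, SE 0.12), which clear methylglyoxal, fell, whereas the secreted peroxidase Gpx3 (1.64, SE 0.20) and the glutaredoxin Glrx (0.59, SE 0.13) rose. The abundant peroxidase Gpx1 had 2572 ± 314.7 and 2226 ± 155.3 CPM (-0.21, SE 0.14, adjusted p = 0.214). In glutathione breakdown 3 of 6 fell and 2 rose (median -0.15), which for so few genes is near the shares of all tested genes. Chac1 and Chac2, which both cleave cytosolic glutathione, went opposite ways: Chac1 rose from 0.946 ± 0.0757 to 74.4 ± 16.0 CPM (6.29, SE 0.22, adjusted p = 6.68e-11) and Chac2 fell to 0.850 ± 0.136 CPM from 11.6 ± 0.378 (-3.76, SE 0.28). Cndp2 rose (1.04), Lap3 fell (-1.42), and so did Oplah (-0.59), the most abundant of the list.

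Conjugates leave the hepatocyte through ABC transporters and are trimmed to mercapturates. Of 13 tested genes of these steps 7 fell and 1 rose, with a median of -0.51. These are 53.8% and 7.69%, beside 31.0% and 31.3% of all tested genes. Abcc2, the pump that exports glutathione conjugates into bile, went from 548.3, 523.6 and 523.3 to 35.3, 40.9 and 38.3 CPM (-3.80, SE 0.13, adjusted p = 6.68e-11). The aminoacylase Acy3 fell (-1.98, SE 0.18), as did Nat8f2 (-0.61, SE 0.12), the most abundant of the list, and the gamma-glutamyltransferase relative Ggt6 rose (1.33, SE 0.20).

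Of 17 listed receptors and factors known to act on transferase genes 10 fell and 5 rose (median -0.53). These are 58.8% and 29.4%, beside 31.0% and 31.3% of all tested genes, so the rises are near the share of all genes. Nr1i3, the xenobiotic receptor CAR, went from 38.8, 26.0 and 27.6 to 0.938, 1.13 and 2.64 CPM (-4.26, SE 0.30, adjusted p = 4.14e-08), and Nr1i2, the receptor PXR, fell from 93.0 ± 1.01 to 34.6 ± 1.81 CPM (-1.43, SE 0.12). The hepatocyte factors Cebpa (-1.46, SE 0.14) and Hnf4a (-0.53, SE 0.15) fell, and Cebpb rose (1.10, SE 0.16). Nfe2l2, which encodes NRF2, rose from 55.3 ± 7.80 to 78.3 ± 5.78 CPM (0.50, SE 0.13, adjusted p = 0.00500), and its inhibitor Keap1 fell (-0.65, SE 0.14). Calls of regulators that were lost when 1 library was left out were those of Maff (0.93, and 0.65 without LPS replicate 3), Ppara (0.37, and 0.25 without LPS replicate 3), Rxra (-0.33, and -0.24 without LPS replicate 1) and Bach1, a repressor of NRF2 target genes (-0.40, and -0.28 without LPS replicate 1). Maff was also lost without control replicate 1 or 3 or LPS replicate 2, Ppara without control replicate 2 or 3, Rxra without control replicate 1 or 3 or LPS replicate 2, and Bach1, named after its values were seen, without control replicate 2 or 3 or LPS replicate 2. RNA levels of a factor do not measure its activity.

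Of 10 tested NRF2 targets outside glutathione metabolism 7 fell and 2 rose (median -0.81). Of all tested genes 31.0% fell and 31.3% rose, so falls were more frequent in this list. Its rises, for so few genes, are near the share of all genes. The epoxide hydrolase Ephx1 had 520.8 ± 40.1 CPM in control and 91.3 ± 14.8 in LPS livers (-2.51, SE 0.15, adjusted p = 6.12e-09). Osgin1 fell too (-1.95, SE 0.21). Haem oxygenase Hmox1 (1.37, SE 0.14) and the ferritin heavy chain Fth1 (0.71, SE 0.14), the most abundant of the list, rose. The fall of the ferritin light chain Ftl1 (-0.48, SE 0.15, adjusted p = 0.0123) was lost without LPS replicate 2 (-0.39), and this gene too was named after its values were seen.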

How the data were processed

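Whole-liver RNA, extracted with Trizol, was sequenced from 3 control and 3 LPS libraries. The authors deposited a table of read counts per gene for each library. The values are whole numbers whose totals differ between libraries, so they were taken as raw. Fields of 8 characters hold the symbol and the Entrez identifier, and longer symbols are cut short. The submitters' processing notes name bcl2fastq 2.0, HISAT2, StringTie, DESeq2, limma and mm10 without roles. The counting tool, annotation, strand setting and handling of multimapping reads are not given in the sources used here.

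Genes were named through RefSeq (GRCm38.p6): 20722 by Entrez identifier, 879 by a complete symbol and 887 by the symbol as deposited. Positions and exon lengths are from GENCODE M21 (GRCm38). Counts were compared in R 4.3.3 with edgeR 4.0.16 (TMM scaling, filterByExpr with a minimum count of 10 and a minimum total of 15, quasi-likelihood F test, 2-sided, no block), with Benjamini-Hochberg adjustment over 12078 genes, and the procedure was tested on simulated data. SE is the log2 fold change over the root of F. Alternatives were RLE factors, library totals, no filter, DESeq2 1.42.0, limma 3.58.1 (log2 CPM, prior count 2), the replicate block and leaving out each library. No block was used because the labels do not say that a repeat number marks a shared day, litter or batch. Libraries of the same repeat number deviated from their group means with correlations of -7.45e-04, 0.104 and 0.0352, and others with -0.121 to 0.0741. With 3 libraries a group these correlations cannot show whether the numbers pair them.

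The 10 genes, the lists and the rules were chosen with earlier results of these data known. Of each list other than the 10 genes, the text names the most abundant gene and up to 2 with the largest rise and 2 with the largest fall among those called with a mean of at least 1 CPM in the higher group. It also names Nfe2l2, Keap1, Nr1i2, Nr1i3, Hnf4a, Cebpa, Cebpb, Ppara and Rxra by rule. A further regulator under that rule is not reported here. The labels do not state that each library is from its own mouse, so p values measure the spread between these samples, which may be technical. Intervals and floors on counts cover counting error only.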

Additional observations from a re-analysis of the deposited data

How the results depend on the processing

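With 3 libraries a group, small changes are hard to call: the log2 fold change of Gstm1 stood near the threshold, and the level of Gsta2 rests on few counts. Under 12 alternatives for each of the 10 genes (120 fits of a gene), 110 kept the direction and the side of the threshold, 6 moved Gstm1 past it and 4 changed a sign. The sign changes were those of Gstm2 with library totals (-0.016) and, with a library left out, of Gstm2 (range -0.169 to 0.27) and Gsta4 (range -0.114 to 0.298), none of them called. The cause was not tested. Members called lower numbered 7 to 8 and members called higher 0 in all 12. With the replicate block 8 members were lower, and Gstm1 (-0.318, adjusted p = 0.0476) was the 1 of the 10 genes whose call changed. Other transferases and MAPEG proteins called lower stayed at 5 to 6 and called higher at 5 to 6, and pathway genes at 35 to 42 lower and 15 to 17 higher. The summed level in LPS livers, 65.5% of control, was 62.2 to 65.0% with CPM not divided by length, library totals or principal transcripts (the last added after seeing the data). With the other transferases and MAPEG proteins added it was 77.7%, a sum that the abundant Mgst1 enters. No sample was examined for outliers, as groups of 3 are too small for it.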
